A study of Mus musculus with 14 samples.

Results

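The comparison set KTR against K314/315R, 2 acetylation-deficient forms of the NF-κB subunit p65, in mouse embryonic fibroblasts (MEFs) treated with TNFα. The arrays were taken by their titles, which gave 5 of the 14 arrays of the series, 3 of KTR and 2 of K314/315R. All cells lacked endogenous p65 (*p65*(-/-) MEFs) and had been complemented by lentivirus. The introduced p65 had lysines 310, 314 and 315 changed to arginine in KTR and lysines 314 and 315 in K314/315R, so that by their names the mutants differ at lysine 310 alone. Both lines were starved overnight and then kept for 3 h in mouse TNFα at 30 ng/ml. Wild type p65 at 3 h, wild type p65 without TNFα (0 h) and the empty vector pTV at 3 h were measured on 3 arrays each. They serve as reference levels and for side comparisons. They also enter the choice of tested probes and the estimate of the spread behind every p-value of the main fit. The cells were pools of infected cells selected with blasticidin, and whether a construct was introduced more than once is not stated. RNA of replicates was isolated on different days.

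p65 (*Rela*) carries the activation domain of the most common NF-κB dimer. In resting cells the dimer is held in the cytoplasm by inhibitors, and TNFα releases it to the nucleus, where it binds κB sites and turns on inflammatory, antiviral and survival genes. Acetyl groups placed on its lysines alter how it binds DNA and partners, and a lysine changed to arginine keeps its positive charge but cannot be acetylated.

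Slides 1 to 3 each held 1 array of KTR, wild type 3 h, pTV and wild type 0 h, while both K314/315R arrays lay alone on slide 4, which was read with another release of the image software (9.1.3.1, against 9.1.1.1). Slide and cell line therefore cannot be told apart in any value below that compares K314/315R with another line. Added control transcripts, foreign to the cells, gave a median of 4.81 and 5.08 (log2 over the array's 75th percentile) on the K314/315R arrays and 3.15 to 4.03 on the other 12. Of 13 fibroblast markers, 11 were well above background on all 5 mutant arrays, and *Lum* on none. All 6 endothelial markers were below that limit on all 5 arrays. Of 8 macrophage markers 0 were above it on all 5 arrays and 5 on none (*Ptprc*, *Emr1*, *Itgam*, *Aif1* and *Fcgr1*), while *Csf1r*, *Cd68* and *Lyzs* were above it on some. Of 7 epithelial markers *Krt8* and *Krt19* were above it on all 5 arrays, *Krt5* and *Krt14* on some, and 3, *Cdh1* and *Epcam* among them, on none. Of the fat cell markers *Fabp4* and *Pparg*, of the muscle markers *Acta1* and of the neural markers *Tubb3* were above it on all 5 arrays, and 4 of 6, 4 of 6 and 2 of 5 markers of these lists on none, *Adipoq* and *Myog* included. No marker probe was called between the mutants. Pearson's r over the log2 values of all probes, which are no replicates of each other, was 0.984 to 0.988 within KTR, 0.991 within K314/315R and 0.978 to 0.989 between them.

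A level below is the log2 of a probe's background-corrected intensity after its array was divided by its own 75th percentile, which lies at 0, and a difference is KTR minus K314/315R. Levels of different probes are used only to rank probes as brighter or dimmer, and not to compare genes. Probes were called at over 1.8-fold in either direction and a Benjamini-Hochberg adjusted p under 0.05 in limma, fitted on all 14 arrays. Of 22172 tested probes, 456 (2.06%) were higher and 109 (0.492%) lower in KTR. With quantile normalization, which gives all arrays the same distribution, 214 (0.965%) were higher and 185 (0.834%) lower, so that the share of higher calls fell from 80.7% to 53.6%. The gap lay among dim probes: among the dimmest of 3 equal parts of the probes, 290 were higher and 79 lower by the 75th percentile, and 74 and 158 by quantiles. Across that part of the probes the median difference was 0.12 by the 75th percentile and -0.07 by quantiles, against 0.00 and 0.03 in the brightest. No probe was called in opposite directions. Called in the same direction by both were 208 higher (0.938%) and 104 lower (0.469%) in KTR, and these probes are described below.

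**Figure D1:**
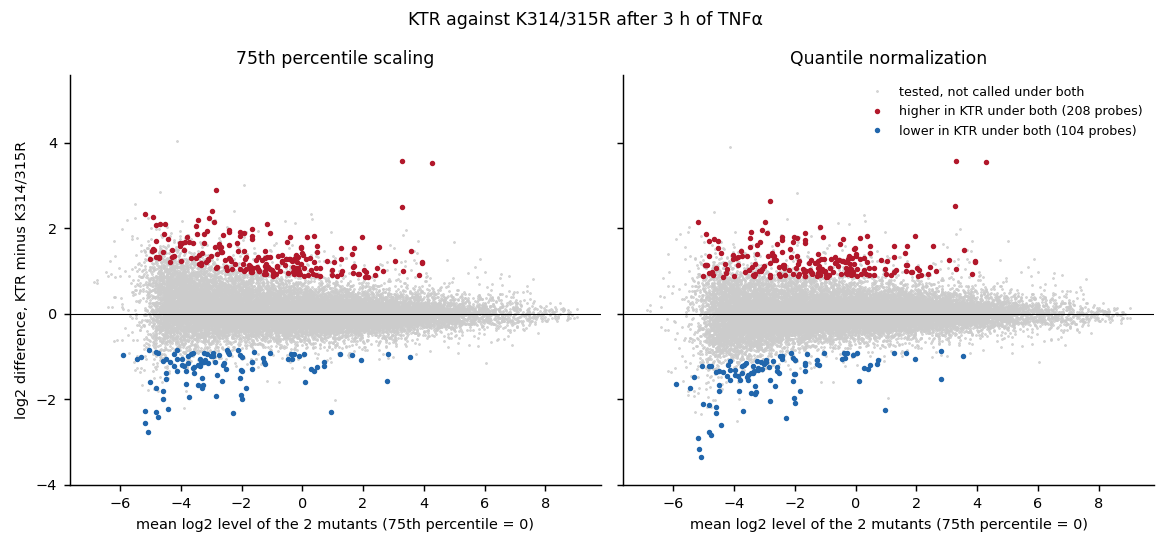
Difference between KTR and K314/315R (y axis, log2) against the mean level of both (x axis, log2, 75th percentile of an array at 0) for every tested probe, with the 75th percentile (left) and quantile normalization (right). Red points are the 208 probes higher and blue points the 104 lower in KTR under both, and the cloud of dim probes lies above 0 on the left and below it on the right.

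Of the mutant arrays left out in turn, these counts rested most heavily on K314/315R replicate 2. Leaving out either K314/315R array left 1 array of that line, and the other lines alone then supplied the spread. Without K314/315R replicate 2, 13 probes were higher and 7 lower under both normalizations. Leaving out K314/315R replicate 1 gave 111 and 82, KTR replicate 1 gave 271 and 201, KTR replicate 2 gave 130 and 60, and KTR replicate 3 gave 156 and 108. A random block for the slide (correlation within slides 0.376) gave 95 and 51. Of the 28 called genes named by rule, *Mmp28*, *Efemp1*, *Asb4*, *Igf2*, *Vax2* and *Lin28b* kept their call without K314/315R replicate 2. With the slide block *Slc16a8*, *Ncoa6*, *Syne2*, *Cckbr*, *Expi*, *Hp*, *Tapbp*, *Samd8* and *Tap1* lost theirs (limma adjusted p = 0.0529 to 0.1). For these named genes, unlike in the counts above, a call by quantile normalization was not also required. A limma fit of the 5 mutant arrays alone called 0 probes, with 919 higher and 209 lower at over 1.8-fold and an unadjusted p under 0.05.

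Wild type and pTV cells at 3 h showed which called genes also differed between a line with wild type p65 and one without p65. These are different pools of infected cells, and whether p65 itself causes a difference between them was not tested. Of the 104 lower probes, 36 (34.6%) were over 1.8-fold higher with wild type p65 than with the empty vector by the same test, against 4.24% of all tested probes. Among them were probes of *Hp*, *Tap1*, *Tapbp*, *Efemp1*, *Camp*, *Vnn1* and *Xdh*, which are described below. Of the 208 higher probes this held for 2 (0.962%). The opposite, lower in wild type than in pTV, held for 14 (13.5%) of the lower and 6 (2.88%) of the higher probes, against 2.03% of all. Induction by TNFα in wild type cells, 3 h over 0 h, was called for 4 (3.85%) of the lower probes and 1 (0.481%) of the higher, against 1.12% of all tested. A fall with TNFα was called for 2 in each set, 1.92% and 0.962%, against 0.424%. These side comparisons use no KTR or K314/315R array, but share the wild type arrays and the fit's estimate of the spread. No test was made on the shares.

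Both sets also differed in which cell line stood apart. For 194 of the 208 probes higher in KTR (93.3%), both K314/315R arrays lay below all 12 other arrays, wild type, pTV and unstimulated cells included, against 8.08% of all tested probes. All KTR arrays lay above all 11 others at 12 of the 208 (5.77%, against 0.961%). Among the 104 lower probes, K314/315R lay above all other arrays at 41 (39.4%, against 3.67%), and KTR below all others at 21 (20.2%, against 0.879%). Membership in the sets fixes a part of these shares, since the arrays of both mutants never overlapped at any called probe. Over all tested probes, every KTR array lay above both K314/315R arrays at 18.8% and below both at 12.5%. How far slide 4 has a part in the larger set was not tested.

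**Figure D2:**
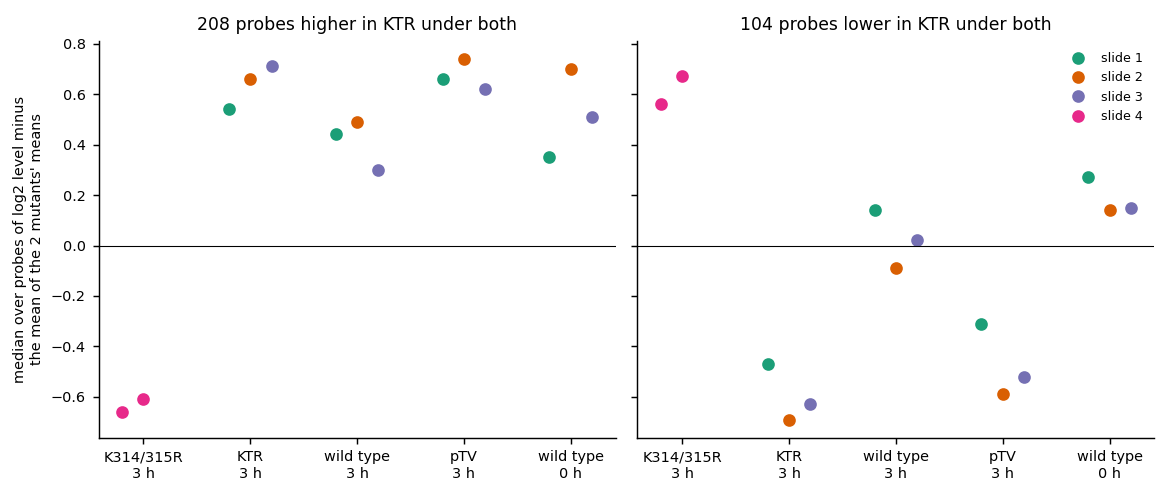
Median, over the probes higher (left) or lower (right) in KTR, of the log2 level on each array minus the mean of both mutants' group means (y axis), by cell line (x axis), each point 1 array coloured by slide. At the higher probes the K314/315R arrays are at -0.66 and -0.61 and the other 12 arrays at 0.30 to 0.74. At the lower probes wild type 3 h is at -0.09 to 0.14, between K314/315R at 0.56 and 0.67 and KTR at -0.69 to -0.47.

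Functions were assigned to 137 of the called genes after their values were seen, and are described without a test. The groups hold called genes only, and uncalled genes of the same functions were not counted. Of all 202 called symbols, 126 were higher and 76 lower in KTR, the background of each count below. Of 16 called genes placed with immunity and inflammation, 14 were lower and 2 (*Tnfsf12* and *Oscar*) higher in KTR. *Hp* encodes haptoglobin, the acute phase protein that binds free haemoglobin. Its level was 2.13, 1.40 and 2.49 on the KTR arrays, 3.06 and 4.11 on the K314/315R arrays, 2.49 to 3.21 in wild type and -4.63 to -4.37 in pTV. Both mutants thus kept most of the signal that pTV lacked, and K314/315R exceeded KTR 2.99-fold (difference -1.58 ± 0.34 SE, limma adjusted p = 0.0237). The call was lost without KTR replicate 2 or K314/315R replicate 2. *Tap1*, a subunit of the peptide transporter that loads MHC class I molecules, was at -3.62, -3.34 and -3.86 in KTR and -2.60 and -2.72 in K314/315R. The difference was -0.94 ± 0.22 SE (limma adjusted p = 0.0312), with wild type at -2.56 ± 0.27 (SD, n = 3) and pTV at or below -6.24 on each array. K314/315R lay within the range of the wild type arrays and KTR below it, and the call was lost without KTR replicate 1 or 3 or either K314/315R array.

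*Tapbp*, encoding tapasin, which bridges that transporter to class I molecules, was at 0.54, -0.35 and -0.62 in KTR and 0.96 and 1.25 in K314/315R (difference -1.25 ± 0.26 SE, limma adjusted p = 0.021). Its brighter probe differed by -0.16 (adjusted p = 0.508), so the probes of this gene disagreed in size. *H2-DMb1*, a class II peptide-loading chaperone, was at -3.87, -4.22 and -3.87 in KTR and -2.82 and -2.73 in K314/315R, and 1 of 3 KTR arrays was well above background there. *Expi* (*Wfdc18*), a secreted proteinase inhibitor, was at 0.09, -0.58 and -0.09 in KTR, and at 1.23 and 3.00 in K314/315R. The K314/315R arrays differed from each other by more than the lower one did from KTR, and the 4.95-fold difference (limma adjusted p = 0.0319) became -1.42 on the log2 scale without replicate 2 (adjusted p = 0.264). The call was lost without KTR replicate 2 or 3 as well. *1100001G20Rik* (*Wfdc21*) was as uneven, at -2.86, -3.50 and -2.56 in KTR and at -2.05 and -0.07 in K314/315R.

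*Camp* and *Vnn1* showed KTR far below K314/315R at low levels. *Camp*, the antimicrobial peptide cathelicidin, was at -3.98, -4.30 and -5.78 in KTR and -2.93 and -2.56 in K314/315R. *Vnn1*, an enzyme that releases cysteamine from pantetheine, was at -4.11, -4.51 and -3.93 in KTR and -2.54 and -2.33 in K314/315R. Each was well above background on 1 of 3 KTR arrays, and in pTV they were at -6.96 ± 0.21 and -6.83 ± 0.04 (SD, n = 3). For *Vnn1* wild type was at -3.77, -3.98 and -4.25, with KTR, and for *Camp* at -2.74, -3.27 and -3.21, nearer K314/315R. The kinase *Ripk3*, a driver of necroptosis counted among the kinases, was at -0.84, -1.13 and -1.02 in KTR and 0.23 and -0.10 in K314/315R, with wild type at -1.14 to -0.91 (difference -1.06, limma adjusted p = 0.00965).

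Of 16 called genes of matrix proteins and proteases, 12 were lower in KTR, against 76 of 202 called symbols, while the wider list of 32 tested matrix genes had a median difference of -0.04. *Efemp1* encodes fibulin-3, a glycoprotein of elastic matrices. It was at -2.57, -2.75 and -2.83 in KTR, -0.85 and -1.08 in K314/315R, -1.11 to -0.73 in wild type and -5.22 to -4.23 in pTV. KTR stood apart from wild type and K314/315R, which overlapped, by 3.36-fold from the latter (difference -1.75 ± 0.24 SE, limma adjusted p = 0.00612). *Vit* (vitrin) showed the same order, with -3.52, -3.73 and -4.10 in KTR, -1.65 and -2.09 in K314/315R and -2.38 to -1.83 in wild type. *Thbs2*, thrombospondin 2, an inhibitor of angiogenesis, was at -0.86, -1.12 and -0.13 in KTR and 0.70 and 1.09 in K314/315R. The wild type arrays lay between, at -0.18 to 0.04, and pTV above, at 1.15 to 1.31, so that this gene was not lost without p65 (difference of the mutants -1.60 ± 0.23 SE, limma adjusted p = 0.00616). *Adamts3*, a procollagen-processing protease, was at -3.63, -3.49 and -3.48 in KTR with wild type at -3.78 to -3.35, while K314/315R was at -2.33 and -1.89 (difference -1.43, limma adjusted p = 0.00951). *Lama2*, the laminin α2 chain, was at -2.59, -2.31 and -2.56 in KTR and -1.47 and -1.49 in K314/315R, with wild type at -1.34 to -1.07. Here KTR stood below all other lines.

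The 300 bases around the start of *Thbs2* are shown because, of the 14 named genes lower in KTR that had a promoter in the RefSeq table (GRCm38.p6, 250 bases before to 50 after the start), this was the only one that held the classical NF-κB consensus on either strand. The match stands in capitals, and the whole window lies at chr17:14694213-14694512 on the minus strand.
Thbs2: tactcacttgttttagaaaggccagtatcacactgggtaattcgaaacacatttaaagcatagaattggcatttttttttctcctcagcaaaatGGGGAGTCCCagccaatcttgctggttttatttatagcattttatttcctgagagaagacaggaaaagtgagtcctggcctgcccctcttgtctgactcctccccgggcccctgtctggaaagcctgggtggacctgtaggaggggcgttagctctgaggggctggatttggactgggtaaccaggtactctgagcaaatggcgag
The same consensus was found for 4 of 59 matched genes lower in KTR (6.78%), 4 of 94 higher in KTR (4.26%), 6.34% of all 9488 matched genes tested and 4.51% of all promoter windows of that length. The shares of both sets were thus near the background.

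4 of the 16 genes of matrix and proteases were higher in KTR. *Mmp28*, encoding epilysin, was at -3.15, -2.11 and -2.41 in KTR and -4.57 and -4.26 in K314/315R, and wild type (-4.16 to -3.80) and pTV (-4.54 to -4.06) lay with K314/315R. KTR exceeded every wild type and pTV array stimulated for 3 h (3.62-fold over K314/315R, difference 1.86 ± 0.25 SE, limma adjusted p = 0.00587). *Tnc*, tenascin C, was called at 1 of 3 probes (-1.09, -1.37 and -1.08 against -2.18 and -2.12), and its brightest probe differed by 0.00. The called *Col1a2* probe was likewise a dim one, and the marker probe of that gene was at 8.15 in KTR and 8.07 in K314/315R.

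The 5 called genes placed with growth and development were lower in KTR, against 76 of 202 called symbols, while a list of 21 tested growth factors and their binding proteins had a median of 0.12. *Igf2*, the imprinted fetal growth factor, was at -1.80, -1.75 and -1.90 in KTR and -0.46 and -0.81 in K314/315R (2.27-fold, limma adjusted p = 0.00933), and its other probe was called as well. *Asb4*, which supplies the substrate to a ubiquitin ligase, was at -2.99, -2.80 and -2.64 in KTR and -1.42 and -1.17 in K314/315R. Wild type (-0.89 to -0.49) and pTV (-1.05 to -0.73) were higher than both mutants, and KTR was the lowest line (difference -1.51 ± 0.17 SE, limma adjusted p = 0.00312). *Klf8*, a transcription factor of the Krüppel-like family counted with the transcription genes, gave -4.32, -4.09 and -4.44 in KTR against -2.69 and -2.51 in K314/315R, and wild type lay at -3.03 to -2.41.

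For 5 named genes no KTR array was well above background, and only bounds can be given. *Vax2*, a homeobox gene of the ventral eye, was at least 1.97-fold higher in K314/315R (limma adjusted p = 0.00312). *Lin28b*, which blocks maturation of the let-7 microRNAs, was at least 1.62-fold higher (adjusted p = 0.00312) and *Hoxb7*, a positional homeobox gene, at least 1.66-fold (adjusted p = 0.027). *Samd8* was at least 1.76-fold higher at 1 probe (adjusted p = 0.0192), while its 2 brighter probes differed by 0.03 and 0.46. *Xist*, the RNA that coats the inactive X chromosome, was at least 1.84-fold higher in K314/315R (adjusted p = 0.0161). Its level was -4.56, -4.20 and -4.95 in KTR, -3.13 and -3.62 in K314/315R, -2.54 to -2.14 in wild type and -6.95 to -6.60 in pTV. K314/315R lay below wild type with no overlap, and KTR and pTV lay at background, where their order is not read.

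Of 12 called genes of redox and metabolism, 10 were lower in KTR, against 76 of 202 called symbols. *Gstt3*, a theta-class glutathione transferase, was at -0.07, -0.39 and -0.34 in KTR and 1.06 and 1.07 in K314/315R (2.52-fold, limma adjusted p = 0.0065), with wild type between at 0.07 to 0.46. *Mgst1*, the microsomal glutathione transferase, was at 2.27, 2.15 and 2.58 against 3.15 and 3.42. *Xdh*, xanthine dehydrogenase, which makes uric acid, was at -2.28, -2.90 and -2.42 against -1.45 and -1.70, and at -5.58 ± 0.10 (SD, n = 3) in pTV, while its dimmer probe differed by 0.20. *Aldh1l1*, a folate enzyme, was at -2.36, -3.60 and -4.40 in KTR and -1.26 and -0.99 in K314/315R, and KTR varied here by more than 2 units. Of signalling enzymes, *Aatk*, a neuronal kinase first found in dying myeloid cells, was at -2.42, -2.75 and -3.77 in KTR and -1.12 and -0.86 in K314/315R, with wild type at -2.59 to -2.46 (3.98-fold, limma adjusted p = 0.00981). *Pde1a*, a calmodulin-dependent phosphodiesterase, was called at 3 of 4 probes, the brightest at -2.45, -2.53 and -3.09 against -1.14 and -1.58 (difference -1.32, limma adjusted p = 0.0127).

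**Figure D3:**
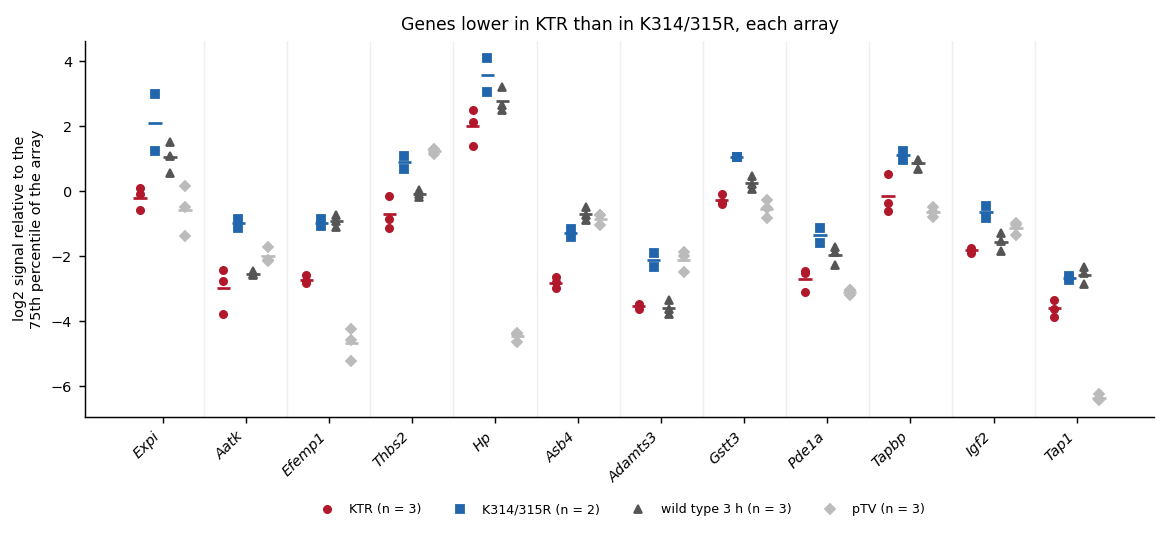
Levels of 12 genes lower in KTR than in K314/315R (y axis, log2 signal over the 75th percentile of the array), each symbol 1 array and each bar the mean of a cell line. Red circles (KTR) lie below blue squares (K314/315R) for every gene, and pTV (grey diamonds) lies far below both for *Hp*, *Efemp1* and *Tap1* but not for *Thbs2*, *Asb4* or *Adamts3*.

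Called genes of chromosome segregation, the cytoskeleton and the Golgi were higher in KTR without exception, against 126 of 202 called symbols. With chromosome segregation 8 were placed. *Smc2*, a core subunit of condensin, was at -0.20, 0.18 and -0.32 in KTR and -2.09 and -2.32 in K314/315R (4.27-fold, difference 2.09 ± 0.39 SE, limma adjusted p = 0.0137). A second of its 4 probes was called, and the others differed by 0.74 and 0.37. *Sgol2* (*Sgo2a*), shugoshin 2, which guards cohesin at centromeres, was at -0.39, -0.67 and -0.91 against -2.42 and -2.87 (difference 1.99, limma adjusted p = 0.0109), and its brighter probe differed by 0.26. *Casc5*, a kinetochore scaffold, was at -1.54, -1.38 and -2.12 against -2.95 and -4.10, and its other probe differed by 0.68 (limma adjusted p = 0.318). *Mphosph1*, a mitotic kinesin, was called at 2 of 3 probes, one at -2.32, -1.72 and -2.49 against -3.95 and -4.28 (limma adjusted p = 0.0175). *Cenpe*, another mitotic kinesin, was at -2.21, -1.40 and -2.17 against -3.45 and -3.67, and its 2 brighter probes differed by 0.31 and 0.37. In each of these, wild type replicates 1 and 2 lay nearer the KTR mean than that of K314/315R, but replicate 3 lay nearer K314/315R for *Smc2* (-1.28) and *Sgol2* (-1.78).

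In the cytoskeleton group 17 of 17 called genes were higher, while the 18 tested genes of the contractile list had a median of 0.04. *Syne2* (nesprin-2), which ties the nucleus to actin, was at -0.96, -1.25 and -1.24 against -3.10 and -2.82 (difference 1.81, limma adjusted p = 0.02), whereas its 4 other probes differed by -0.01 to 1.22, none called under both. *Utrn* (utrophin), *Cald1* (caldesmon) and *Tubb2b* (a β-tubulin) were 1.24, 1.55 and 1.47 higher at the called probe. The brighter *Cald1* probe differed by 0.51 and the brightest *Utrn* probe by 0.02, neither called. All 7 called Golgi and vesicle genes were higher, among them *Golgb1* (giantin), at 0.58, 0.29 and 0.56 against -1.38 and -1.24, and *Gbf1*, an exchange factor for Arf proteins, at 0.92, 0.67 and 0.67 against -0.90 and -0.72. The other probe of *Gbf1* differed by 0.04, and the brightest of *Golgb1* by 0.84.

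Among called transcription and chromatin genes 18 were higher and 8 lower, and among those of RNA processing and translation 15 were higher and 2 lower. *Ncoa6*, a coactivator of nuclear receptors, was at -0.06, -0.29 and -0.07 in KTR and -2.15 and -1.88 in K314/315R (3.67-fold, limma adjusted p = 0.0317). Its brighter probe, at 4.24 and 4.13, differed by 0.11. *Taf1*, the largest subunit of TFIID, was at 0.76, 0.59 and 0.77 against -0.75 and -0.66, and its brightest probe differed by -0.12. The nuclear RNA *Malat1* was 1.56 higher, with K314/315R at 1.73 and 1.79. Of 13 kinases and phosphatases, 10 were higher in KTR, among them *Ptpn11* (SHP-2), at 2.82, 2.72 and 3.08 against 0.78 and 1.36, with its brightest probe differing by 0.16.

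Other genes also stood among the largest differences. *Slc16a8*, a lactate transporter, was at -2.78, -2.06 and -0.70 in KTR and -4.08 and -3.89 in K314/315R, with KTR replicate 3 highest (4.40-fold, limma adjusted p = 0.0244). *Centa1* (*Adap1*) was at -1.41, -1.23 and -0.29 against -3.11 and -2.61. *Prh1*, a proline-rich secretory protein, was at 1.13, 0.94 and 1.79 against -0.56 and -0.51, with wild type at 0.72 to 0.82 (3.53-fold, limma adjusted p = 0.00612). *Cckbr*, the gastrin receptor, was on no K314/315R array well above background and at least 1.99-fold higher in KTR (adjusted p = 0.0244). *Vps13a* (5.28 and 4.88 against 2.00 and 1.00) and *Foxq1* (3.97 and 5.09 against 2.28 and 1.78) had the value of KTR replicate 2 left out as an outlier spot, so that their differences of 3.58 and 2.50 rest on 2 KTR arrays.

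**Figure D4:**
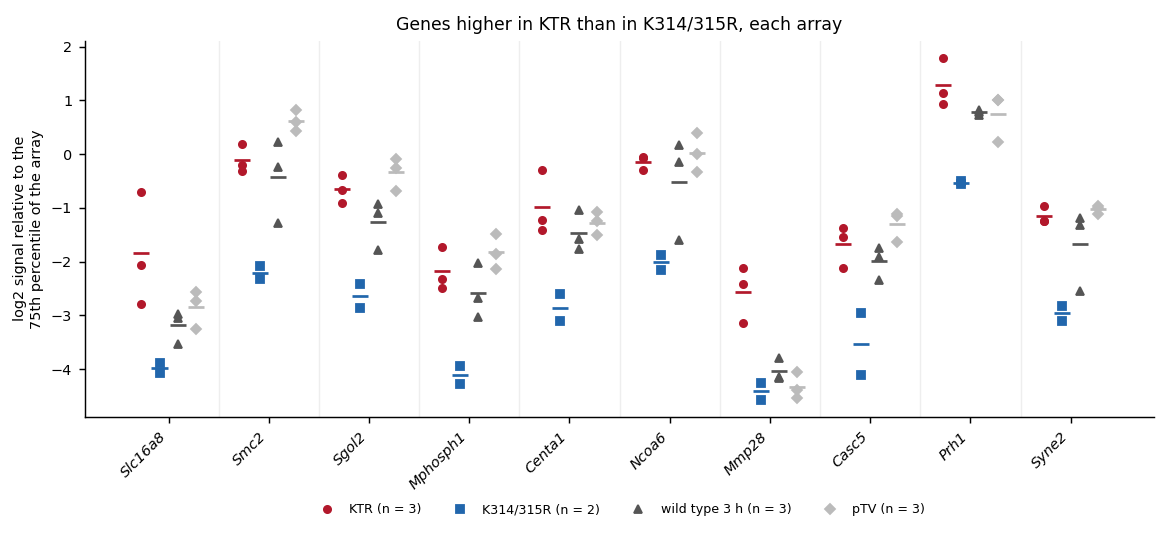
Levels of 10 genes higher in KTR than in K314/315R (y axis, log2 signal over the 75th percentile of the array), each symbol 1 array and each bar the mean of a cell line. Wild type (dark triangles) and pTV (grey diamonds) lie nearer KTR than K314/315R by their means, except both for *Mmp28* and wild type for *Slc16a8*, and 1 wild type array is low for *Smc2*, *Ncoa6* and *Syne2*.

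That low array was wild type replicate 3. It lay over 0.5 below the mean of wild type replicates 1 and 2 at 45 of the 208 probes higher in KTR and over 0.5 above it at 10, whereas over all 22172 tested probes 582 were lower and 1005 higher. At *Ptpn11* wild type gave 2.80, 2.69 and 1.70, at *Golgb1* 0.60, 0.33 and -0.74 and at *Ncoa6* 0.16, -0.15 and -1.59. The array lay on slide 3, away from K314/315R, and without it 208 and 95 probes were called.

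The probes of a gene often disagreed in the higher set. Of 126 gene symbols higher in KTR, 91 had several tested probes, and at none were all of them called. For 6 more than 1 probe was called. The 152 uncalled probes of these genes that were measured on all 5 arrays had a median difference of 0.18, and 109 were positive, while the median of the called set was 1.27. Of 76 symbols lower in KTR, 27 had several probes and 2 were called at all of them. The 19 other probes had a median of -0.47, with 15 negative, against -1.15 for the called set. A called probe was fixed to differ and an uncalled one to differ less, so the sizes are a description. Which part of a transcript each probe reads was not analysed here.

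Gene lists of pathways were read at the brightest tested probe of each gene. There 4 members were called, 1 each in 4 of 14 lists. At a dimmer probe *Col1a2*, *Tnc*, *Cald1* and *Sesn2* were also called, higher in KTR by 1.68, 0.97, 1.55 and 0.93. The lists were written with earlier results of these data known and are described by counts and medians, beside a median of 0.03 over all tested probes. Of 44 tested interferon-stimulated genes, 1 (*Tap1*) was lower and 0 were higher in KTR under both normalizations, against 0.469% and 0.938% of all tested probes. With an estimated correlation within slides *Tap1* was not called (limma adjusted p = 0.0529). The median difference of the list was -0.39 (-0.37 by quantiles), and 42 members lay below 0. Replicate 2 was the lower K314/315R array for every member but *Ifit2*, *Mx1*, *H2-D1* and *Gbp4*. At some it lay within the KTR range, as for *Isg15* (1.58, with replicate 1 at 2.42) and *Ifit3* (2.96 and 3.66). At others, such as *Ifi44*, both arrays lay above every KTR array. The median without either array was not computed. Among members measured in both mutants, *Mpa2l* (-1.60, limma adjusted p = 0.089) and *Ifi44* (-1.57, limma adjusted p = 0.109) lay furthest from 0 and did not pass. *Mx1* was well above background on no KTR array and at least 1.07-fold higher in K314/315R. Of 40 NF-κB targets, limma called 0, with 32 below 0 and a median of -0.18. *Cxcl1*, a neutrophil chemokine, was at 6.39, 6.17 and 3.85 in KTR and 6.47 and 6.77 in K314/315R, with KTR replicate 3 far below the others (difference -1.15, limma adjusted p = 0.246). *Saa3*, serum amyloid A3, differed by -0.91 (limma adjusted p = 0.0637) and the inhibitor *Nfkbia* by -0.37 (limma adjusted p = 0.104).

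Of 30 proliferation genes, 28 were above 0 with a median of 0.37, and none passed both criteria. Replicate 2 was the lower K314/315R array for every member but *Cdt1*. Replicate 1 lay near the KTR mean at some, such as *Mki67* (3.43 against 3.40) and *Pcna* (4.46 against 4.45). There replicate 2 was at 2.53 and 3.68. At others, such as *Cdc6*, both lay below every KTR array. The median without either array was not computed. *Cdc6* (0.84, limma adjusted p = 0.0493) and *Mcm5* (0.77, limma adjusted p = 0.065), which license replication origins, were highest. The *Mcm5* value rests on 2 KTR arrays, since the spot of replicate 3 was left out as an outlier. All 11 tested p53 targets lay below 0 (median -0.24), with none called and *Trp53inp1* at -0.54 (adjusted p = 0.0701). Among 16 metalloproteinases and their inhibitors, *Mmp28* alone was called, and the median was -0.19. Of 32 matrix genes *Thbs2* was called at its brightest probe (median -0.04). Of 18 growth arrest and imprinted genes *Igf2* was called (median -0.15), and *Peg10* was well above background on 1 of 3 KTR arrays and no K314/315R array, which gives no fold. At the brightest probe no member was called under both of the contractile, growth factor, cholesterol and fatty acid, glycolysis and hypoxia, unfolded protein, immediate early and Wnt lists, whose medians lay between -0.13 and 0.12.

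**Figure D5:**
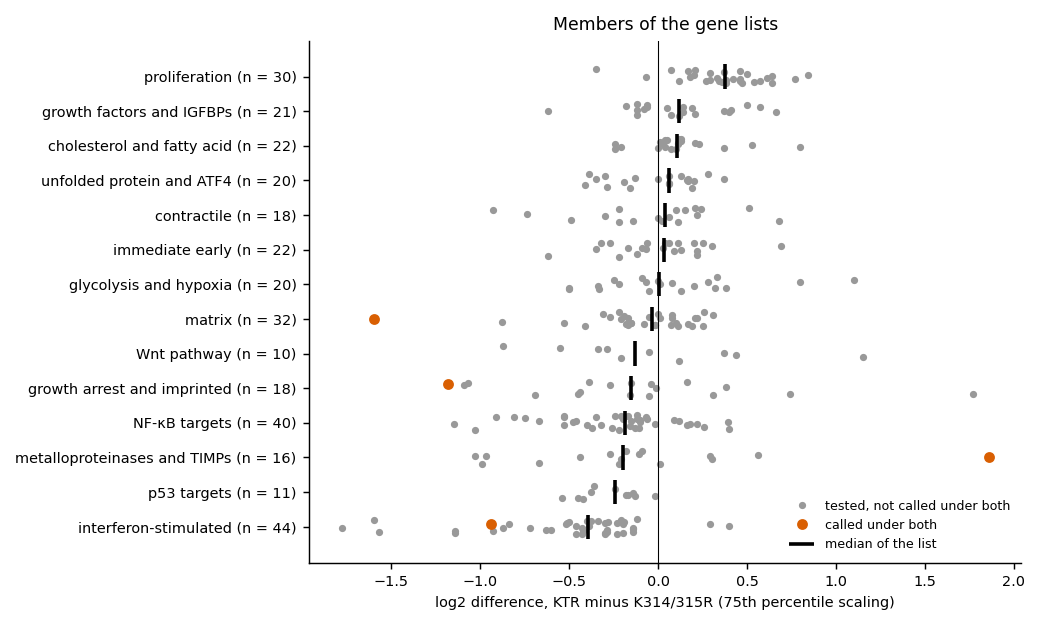
Difference between KTR and K314/315R (x axis, log2) of each tested member of 14 gene lists at its brightest probe (y axis, with the number of members), black bars marking medians and orange points members called under both normalizations. Interferon-stimulated genes lie lowest (median -0.39) and proliferation genes highest (median 0.37), by means over both K314/315R arrays. Those arrays differed at many members of both lists, and the order was not tested without either array. There are 4 orange points in all. The outermost grey points (*Mx1* at -1.78, *Peg10* at 1.77) are of probes not above background in 1 mutant.

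*Rela* and 4 genes of particular interest in this system did not pass. The brighter *Rela* probe was at 1.39, 1.54 and 0.79 in KTR and 1.54 and 1.87 in K314/315R (difference -0.47 ± 0.19 SE, limma adjusted p = 0.179). There pTV, without p65, was at 1.00 to 1.34, so that this probe does not check the labels. At the dimmer probe pTV, at -2.84 to -2.31, lay below KTR (-2.26 to -1.99), K314/315R (-2.06 and -1.51) and wild type 3 h (-2.07 to -1.88). The mutants overlapped there, and the mean of wild type 0 h was -2.58. *Mmp10*, stromelysin-2, was at -1.27, -1.88 and -1.18 in KTR and -0.73 and -0.21 in K314/315R, and *Mmp13*, collagenase-3, at -0.55, -0.74 and -0.14 against 0.29 and 0.72. Their arrays did not overlap, and the 1.96-fold and 1.98-fold differences had adjusted p of 0.0894 and 0.111 in limma. *Cfb*, complement factor B, was at -0.62, -1.02 and -0.73 against -0.38 and -0.15 (difference -0.53 ± 0.25 SE, limma adjusted p = 0.255). *Mpa2l* (*Gbp6*), an interferon-induced GTPase, was at -0.33, -2.02 and -2.33 in KTR and 0.24 and -0.17 in K314/315R. KTR replicate 1 lay near K314/315R there, and without it the difference of -1.60 (adjusted p = 0.089) became -2.21 (adjusted p = 0.0087).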

How the data were processed

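Arrays of 1 colour (Agilent Whole Mouse Genome, Cy3) were analysed. The authors deposited scanner output of Feature Extraction, whose intensity values are background-corrected by the software but not scaled between arrays. They also deposited normalized intensities on an unexplained scale (medians 64.6 to 85.5). Of these, 99.648 to 99.815% per array lay within 1% of the background-corrected values times a single factor. The submitters' processing notes name Agilent Feature Extraction 9.1.

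Outlier spots (1 to 326 per array) were left out, spots of a probe averaged, and every array was divided by its own 75th percentile (967 to 1442 units) before log2. Of 41174 probes, 22172 were tested, those that all arrays of some group showed well above background. For 5 of these a group had no value. Groups were compared in limma 3.58.1 (R 4.3.3), two-sided, and the test was checked on simulated data. "At least" folds use the lowest signal well above background, where a mutant had none.

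The comparison, genes and lists were chosen with earlier results of these data known. Named were, of probes called under both normalizations with a symbol (clone names left out), the 10 largest folds per direction measured on all arrays, the 5 largest bounds, up to 4 called members a list, and *Rela*, *Mmp10*, *Mmp13*, *Cfb* and *Mpa2l*. All others were chosen after their values were seen. Symbols in parentheses come from RefSeq (GRCm38.p6), which held an accession for 22951 probes. The functional groups were assigned after values were seen, and the NF-κB consensus was chosen after a looser motif had matched most tested promoters. P-values cover the spread between these samples. Alternatives were other scalings, background corrections, filters, fits and left-out arrays.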

Additional observations from a re-analysis of the deposited data

How the results depend on the processing

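No named difference changed sign under any alternative run. The 28 named genes called were chosen as called by quantiles too, so that call was fixed by the choice. For the other alternatives the call was read by the 75th percentile alone. All 28 kept it with another reference of the scaling, no filter, outlier spots kept or the authors' table. With the replicate block 27 kept it, and with a random slide block 19. Sizes without K314/315R replicate 2, where 1 array of that line remains, are given above for some of them. The median of the interferon-stimulated list was -0.37 by quantiles and -0.32 by normexp, and that of the proliferation list 0.39 and 0.46. Counts are given as higher and lower in KTR, first by the 75th percentile (456 and 109), then under both normalizations (208 and 104). Quantile normalization alone gave 214 and 185. No filter on dim probes gave 1291 and 168, with a share of higher calls of 88.5%, and under both 163 and 107. With probes above that limit on all 14 arrays alone 316 and 45 were called (87.5% higher), and under both 186 and 41. A random slide block gave 212 and 58, then 95 and 51. An unadjusted p gave 907 and 234, then 491 and 232. Any fold gave 882 and 318, then 507 and 273. A fit of only the 5 arrays called 0 in each, with a lowest adjusted p of 0.0626. Leaving out 1 array gave 55 to 514 and 25 to 211, then 13 to 271 and 7 to 201. The authors' table gave 337 and 153 (68.8% higher), then 174 and 136.

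The normexp background correction called 0 in each, with 185 and 96 at over 1.8-fold and an unadjusted p under 0.05. A few spots darker than their local background (10 on wild type 3 h replicate 1, 5 on pTV replicate 2, 3 on K314/315R replicate 2) raised the lowest percentile of the corrected values on those arrays to 1740, 601 and 187, against 56.6 to 101 on the others. With the array's median background at such spots, an alternative chosen after seeing the data, 218 and 92 were called (70.3% higher), and under both 166 and 84. Of these 132 and 45 were among the 208 and 104. Leaving out wild type 3 h replicate 3, also added later, gave 467 and 104, then 208 and 95.

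With the replicate block 769 and 174 were called, and under both 472 and 167, of which 204 and 100 were among the 208 and 104. *Tap1* lost its call there, and *Mmp10* (-1.07, limma adjusted p = 0.0253) and *Mpa2l* (-1.34, limma adjusted p = 0.0313) gained a call. For these genes, unlike in the counts under both, a call by quantile normalization was not also required. The number is the slide for KTR, but K314/315R lies on a slide of its own. The deviations of KTR and K314/315R arrays with the same number from their group means correlated at 0.366 and 0.0436 across probes. With 2 arrays, 1 lies as far above the group mean as the other below it, so other numbers give no reference, and whether the numbers pair the samples cannot be read from these values. Signal over background limits the 26 lower and 17 higher probes at which 1 mutant had no array well above background. At 2 probes neither had one. Slide 4 cannot be told apart from K314/315R by any alternative.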
